A study of Mus musculus with 6 samples.

Results

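The alcohol and retinaldehyde dehydrogenases are a set of 9 genes, among 16430 genes tested in mouse pancreatic islets, whose enzymes oxidise alcohols and aldehydes or handle vitamin A. The set holds the alcohol dehydrogenases Adh1, Adh5 and Adh7, the retinaldehyde dehydrogenases Aldh1a1, Aldh1a2 and Aldh1a3, their mitochondrial relative Aldh1b1, the retinol dehydrogenase Rdh10 and the retinaldehyde reductase Dhrs3. Adh1 was picked for its large fall in the knockout, so its difference between the groups is given as a description without a test, and the other members were chosen by name as its family and pathway partners. The RNA, selected by its poly(A) tail, came from male C57BL/6 mice on postnatal day 24: 3 controls and 3 Dpy30 knockouts, with 1 library per mouse. Dpy30 is a core subunit of the complexes that methylate lysine 4 of histone H3, and the study addresses the role of that mark in islet cells as they mature after birth. How Dpy30 was deleted, and in which cells, is not stated in the labels, nor is any Cre or floxed allele of the control mice.

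Alcohol dehydrogenases turn alcohols, among them ethanol and retinol, into aldehydes. In the vitamin A pathway retinol is first oxidised to retinaldehyde, mostly by the membrane enzyme Rdh10, and Dhrs3 carries retinaldehyde back to retinol. Aldh1a1, Aldh1a2 and Aldh1a3 then oxidise retinaldehyde irreversibly to retinoic acid, the ligand of the retinoic acid receptors, which takes part in pancreas development. In islets Aldh1a3 is best known as a gene that becomes more abundant in failing beta cells of diabetic mice.

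The libraries held 17131515 to 25354384 estimated reads, knockout replicate 2 the fewest. Transcripts without exon 4 of Dpy30 made up 80.5 to 82.2% of the Dpy30 reads in the knockout libraries and 0.439 to 5.24% in the control libraries, so every library matched its label. Insulin, glucagon and somatostatin mRNAs were present in all 6 libraries, with a summed beta cell marker level (10 genes) of 160500, 265100 and 185800 CPM in control and 71650, 122000 and 98380 CPM in knockout islets. CPM are read counts divided by the scaled size of their library. In knockout replicate 2 the predicted gene Gm42418 held 14.7% of all reads, against 0.0990 to 0.236% elsewhere. Of the 16430 genes, 9.95% were called, that is, had an adjusted p below 0.05 in edgeR's quasi-likelihood test, with 4.1% called higher and 5.84% called lower in the knockout (674 and 960 genes). Scaling the libraries to their total counts alone moved the median log2 fold change of all genes by 0.13 and turned that split to 1054 higher and 674 lower. In bulk islet RNA, fewer cells of a type and less RNA per cell cannot be told apart.

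The 3 alcohol dehydrogenases of the set lie within 237.7 kb on the plus strand of chromosome 3 (GRCm38), Adh7 at 138217760-138233382, Adh1 at 138260991-138290698 and Adh5 at 138443093-138455499. The sequences just before their starts are shown because Adh1 alone of these 3 neighbours was picked for its fall, and because their content of CG dinucleotides differs. Each line gives the 150 bases on the plus strand that end directly before the start of the gene's main transcript, from RefSeq promoter windows on GRCm38.p6, with CG dinucleotides in capitals. The stretches are chr3:138277344-138277493 for Adh1, chr3:138442943-138443092 for Adh5 and chr3:138217610-138217759 for Adh7.
Adh1: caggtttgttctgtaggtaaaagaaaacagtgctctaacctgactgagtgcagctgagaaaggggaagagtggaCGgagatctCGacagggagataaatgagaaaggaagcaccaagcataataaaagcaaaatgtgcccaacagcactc
Adh5: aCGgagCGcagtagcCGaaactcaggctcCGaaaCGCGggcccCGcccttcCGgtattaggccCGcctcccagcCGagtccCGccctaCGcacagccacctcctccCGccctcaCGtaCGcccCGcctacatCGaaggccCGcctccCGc
Adh7: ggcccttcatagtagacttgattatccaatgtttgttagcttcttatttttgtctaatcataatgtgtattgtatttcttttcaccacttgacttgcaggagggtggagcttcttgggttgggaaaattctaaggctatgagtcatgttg
They hold 2 CG dinucleotides before Adh1, 19 before Adh5 and 0 before Adh7. In the full windows of 300 bases around each RefSeq start, Adh1 had 6 CG, Adh7 had 3 and the window at the main start of Adh5 had 26. The median over all 32851 windows was 7, and 16.87% held at least 26. Of the other members, the Aldh1a2 window had 50 CG, a number that 0.8554% of windows reached, Aldh1b1 had 7, the most CG-rich Dhrs3 window had 21, and the windows at the starts of Aldh1a1 had 3 and 1. Windows were matched for 7 of the 9 members, which leaves out Aldh1a3 and Rdh10. The motif AGGTCA, the core site bound by nuclear receptors of the retinoic acid receptor type, was in none of these members' windows on either strand, and in 16.3% of all windows.

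In control islets Adh1 was the most abundant of the 9 mRNAs per length, and in knockout islets Adh5 took that place. Adh1, the classical alcohol dehydrogenase of liver and a retinol oxidiser, had 3314, 2842 and 1941 estimated reads in the control libraries, in the order of their replicate numbers, and 63, 87 and 162 in the knockout libraries, an order kept below. These correspond to 138, 122 and 79.7 CPM in control and 2.53, 5.48 and 6.09 CPM in knockout islets. The groups lay far apart, with the lowest control library, replicate 3, at 95% counting limits of 76.2 to 83.3 CPM and the highest knockout library, replicate 3, at 5.19 to 7.11 CPM (exact Poisson, counting error only). The means were 113 ± 30.3 and 4.70 ± 1.91 CPM (SD, n = 3 each), a fitted 24.2-fold lower level, or a log2 fold change of -4.60 with an SE of 0.37. The authors' deposited table gave a log2 fold change of -4.49. Adh1 did not vanish, since each knockout library held at least 63 reads of it, against a limit of 3 reads for a count of 0. Nearly all reads fell to the protein-coding transcript Adh1-201, which starts at position 138277494 and held 99.9, 99.3 and 98.98% of Adh1 reads in control and 100, 96.0 and 93.9% in knockout islets. The remaining reads went to the retained-intron transcript Adh1-203.

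Adh5, the glutathione-dependent formaldehyde dehydrogenase that every cell uses, had 50.9, 48.5 and 52.5 CPM in control and 65.6, 70.0 and 56.4 CPM in knockout islets. All knockout libraries lay above all control libraries, although 17.6% of all genes tested also did so. The means were 50.6 ± 2.004 and 64.0 ± 6.93 CPM, and the log2 fold change of 0.34 (SE 0.13, 95% interval 0.04 to 0.63) missed the threshold in edgeR's test (adjusted p = 0.139, unadjusted 0.0309). The authors' deposited table gave 0.25 with an adjusted p of 0.261. The main protein-coding transcript held 81.1 to 89.7% of the Adh5 reads, and a transcript annotated to undergo nonsense-mediated decay held 9.12 to 15.4% in control and 7.78 to 10.4% in knockout islets.

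Adh7, a retinol-active alcohol dehydrogenase best known from the stomach lining, was close to the limit of detection. Its 6 libraries held 21, 9 and 12 reads in control and 18, 18 and 15 in knockout islets, or 0.388 to 0.876 and 0.564 to 1.13 CPM. The ranges overlapped, and edgeR gave a log2 fold change of 0.43 (SE 0.45, 95% interval -0.60 to 1.45, adjusted p = 0.577). The interval is too wide to place Adh7 on either side of 0. The remaining genes of the cluster, Adh4, Adh6a and Adh6b, held 1, 1 and 6 reads over all 6 libraries together and were not tested. The antisense genes Gm16559 and 0610031O16Rik, which overlap Adh1 and Adh7, held 8 and 5 reads in all.

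**Figure D1:**
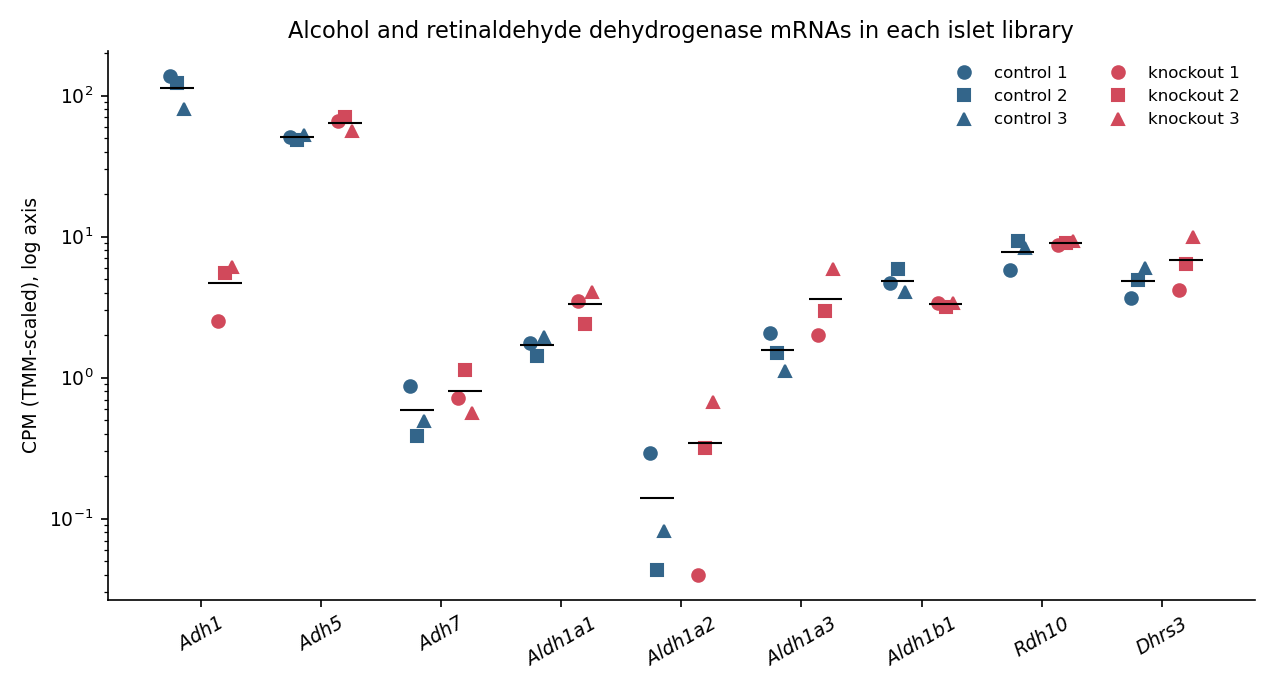
CPM of each of the 9 members on a log axis, with control libraries and knockout libraries as separate points and the group means as lines. Adh1 is at 79.7 to 138 CPM in control and 2.53 to 6.09 CPM in knockout islets, while the groups of the other members lie close together or overlap.

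The Adh mRNAs therefore had a different make-up in the groups. TPM, which divide reads by transcript length, allow levels to be compared between genes within a library. Adh1 stood at 98.5, 74.6 and 57.5 TPM and Adh5 at 37.8, 30.8 and 37.0 TPM in control islets, so that Adh1 was 2.61, 2.42 and 1.56 times as abundant as Adh5. In knockout islets Adh1 stood at 2.46, 3.49 and 6.28 TPM and Adh5 at 64.2, 42.8 and 52.5 TPM, with Adh5 26.1, 12.3 and 8.37 times as abundant as Adh1. Adh1 thus held 67.8% ± 6.19 of the TPM of Adh1, Adh5 and Adh7 in control and 7.23% ± 3.49 in knockout islets, and Adh5 held 31.9% ± 6.16 and 91.9% ± 3.60. The sum of the 3 genes was 137, 106 and 94.8 TPM in control and 67.0, 47.2 and 59.0 TPM in knockout islets. These shares and sums contain Adh1, so no test was made on them. TPM were not rescaled between libraries, so the order of genes within a library is firmer than a TPM difference between libraries.

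**Figure D2:**
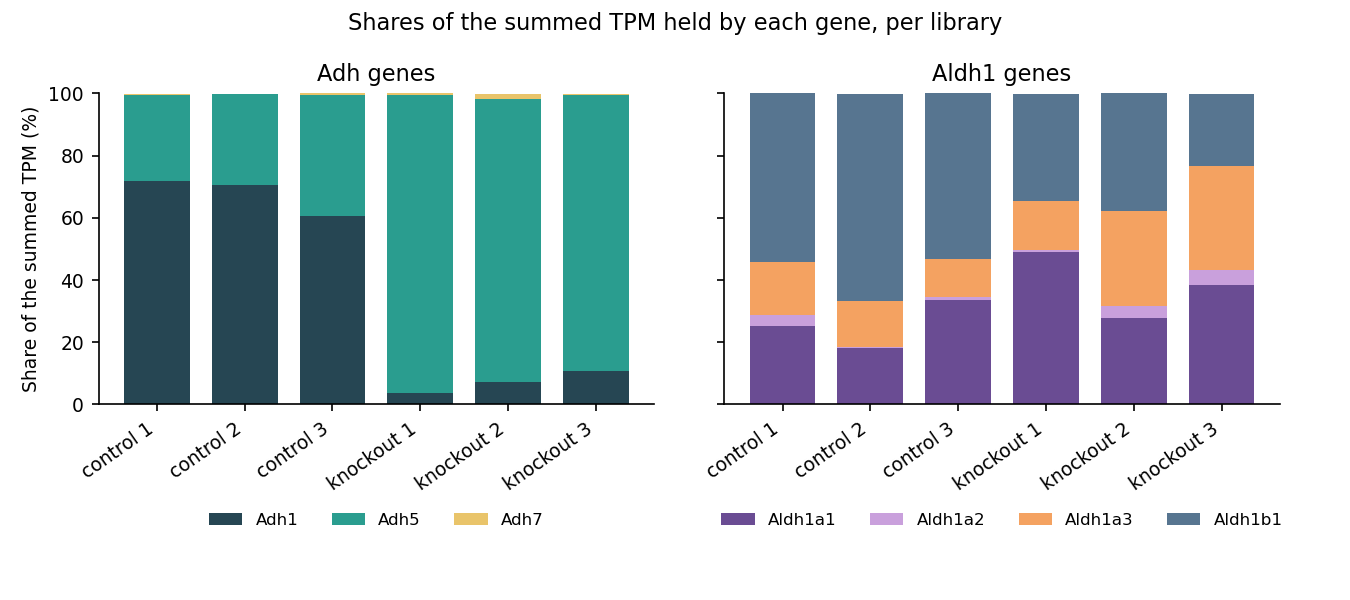
Share of summed TPM, in percent, held by each member of the Adh family (left) and of the Aldh1 family (right) in each of the 6 libraries. Adh1 holds 60.7 to 72.0% of the Adh family's TPM in control and 3.67 to 10.6% in knockout libraries, and Aldh1b1 holds 53.1 to 66.8% and 23.4 to 37.9% of the Aldh1 family's TPM.

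Over all 9 members, the order by mean TPM in control islets was Adh1 (76.8), Adh5 (35.2), Dhrs3 (3.05), Rdh10 (2.05), Aldh1b1 (2.01), Aldh1a1 (0.894), Aldh1a3 (0.514), Adh7 (0.334) and Aldh1a2 (0.0612). Libraries of neighbours in that order overlapped for Rdh10 with Aldh1b1 and for each step from Aldh1a1 down, and were apart at the other steps. In knockout islets the order was Adh5 (53.2), Dhrs3 (5.94), Adh1 (4.07), Rdh10 (3.01), Aldh1a1 (2.35), Aldh1b1 (1.74), Aldh1a3 (1.58), Adh7 (0.470) and Aldh1a2 (0.184). There Adh5 stood apart from Dhrs3 and Aldh1a3 from Adh7, and all other neighbours overlapped. In both groups the alcohol dehydrogenase Adh5 was far above the enzymes that make retinoic acid, each of which averaged under 3 TPM.

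Of the 7 members other than Adh1 that had enough reads to be tested, 0 were called by edgeR, beside 9.95% of all genes, and 0 were called by DESeq2, limma-voom or any other alternative. An unadjusted p under 0.05 was reached by 3 of them, Adh5, Aldh1a1 and Aldh1a3, and by 27.5% of all genes tested. The log2 fold change was above 0 in 6 of the 7, all but Aldh1b1, with a median of 0.43 over the 7, beside 0.006 over all genes tested. CPM ranges of the groups did not overlap for Adh5 and Aldh1a1, higher in the knockout as were 17.6% of all genes tested. They also did not overlap for Aldh1b1, lower as were 17.2% of all genes tested. By TPM, the ranges of Aldh1a1 and Aldh1b1 overlapped.

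The enzymes at the retinol and retinaldehyde step, Rdh10 and Dhrs3, averaged 2.05 and 3.05 TPM in control islets. In knockout islets they averaged 3.01 and 5.94 TPM, and neither was called by edgeR. Rdh10, on chromosome 1 at 16105774-16133734, had 5.76, 9.30 and 8.25 CPM in control and 8.71, 8.95 and 9.33 CPM in knockout islets. The low value was control replicate 1, and the knockout libraries lay within the range of the other control libraries or barely above it. The means were 7.77 ± 1.82 and 9.00 ± 0.31 CPM, with a log2 fold change of 0.21 (SE 0.23, 95% interval -0.31 to 0.74, adjusted p = 0.591 in edgeR). Dhrs3, which is itself induced by retinoic acid, lies on chromosome 4 at 144892827-144928209 and had 3.67, 4.91 and 5.95 CPM in control and 4.22, 6.37 and 10 CPM in knockout islets. Only knockout replicate 3 stood well above the control range. The means were 4.85 ± 1.14 and 6.86 ± 2.93 CPM, with a log2 fold change of 0.50 (SE 0.35, 95% interval -0.31 to 1.31, adjusted p = 0.394 in edgeR). When knockout replicate 3 was left out that value was 0.13 (adjusted p = 0.862).

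The retinaldehyde dehydrogenases were scarce in both groups, with at most 156.5 reads of any of them in a library. Aldh1a1, on chromosome 19 at 20492715-20643465, had 42, 33.4 and 47 estimated reads in control and 86.7, 37.8 and 106.5 in knockout islets, which is 1.75, 1.42 and 1.93 CPM against 3.49, 2.40 and 4.02 CPM. By CPM, every knockout library lay above every control library, as for 17.6% of all genes tested, with knockout replicate 2 nearest to the controls. By TPM the groups overlapped, with knockout replicate 2 at 0.869, below control replicates 1 and 3 at 0.959 and 1.13. With an offset for transcript length the adjusted p in edgeR was 0.160. The means were 1.70 ± 0.26 and 3.30 ± 0.83 CPM. The log2 fold change was 0.96 (SE 0.31, 95% interval 0.26 to 1.67), with an unadjusted p of 0.0135 and an adjusted p of 0.0865 in edgeR, short of the threshold, and the authors' deposited table gave 0.64 with an adjusted p of 0.110. Aldh1a7, a close paralog of Aldh1a1, had 0.334, 0.517 and 0.205 CPM in control and 1.28, 0.630 and 1.24 CPM in knockout islets, with a log2 fold change of 1.59 (adjusted p = 0.0663 in edgeR). Reads can be shared between near-identical paralogs, so the separate values of this pair are uncertain.

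Aldh1a1 transcripts begin at upstream or downstream starts that lie over 100 kb apart, and the estimated split between them was unstable. The upstream starts took 3.4, 11.6 and 33.6 reads in control and 30.8, 37.8 and 33.3 in knockout islets. The downstream start, that of Aldh1a1-201, took 38.6, 21.8 and 13.4 reads in control and 55.9, 0 and 73.2 in knockout islets. The split varied widely between libraries of the same group.

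Aldh1a3, on the minus strand of chromosome 7 at 66390890-66427517, had 50.2, 35.5 and 27.4 reads in control and 49.7, 46.7 and 156.5 in knockout islets. That is 2.09, 1.51 and 1.11 CPM against 2.01, 2.96 and 5.87 CPM, so knockout replicate 1 lay within the control range and knockout replicate 3 was the highest. The means were 1.57 ± 0.49 and 3.61 ± 2.01 CPM. The log2 fold change was 1.21 (SE 0.45, 95% interval 0.17 to 2.25), with an adjusted p of 0.132 in edgeR. When knockout replicate 3 was left out it was 0.66 (adjusted p = 0.389). The authors' deposited table gave 0.88 with an adjusted p of 0.0574.

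Aldh1a2, the main retinoic acid source of the embryo, lies on chromosome 9 at 71215789-71296243 and had 7, 1 and 2 reads in control and 1, 5 and 18 in knockout islets. It did not pass the filter on low counts and was not tested. Of its 34 reads in all, 18 came from knockout replicate 3.

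Aldh1b1, a mitochondrial enzyme for acetaldehyde and other aldehydes that marks progenitor-like cells in the pancreas, lies on chromosome 4 at 45799022-45804604. It had 4.67, 5.86 and 4.07 CPM in control and 3.37, 3.15 and 3.39 CPM in knockout islets, with all knockout libraries below all control libraries. The means were 4.86 ± 0.91 and 3.30 ± 0.13 CPM. The log2 fold change of -0.56 (SE 0.25, 95% interval -1.13 to 0.01) had an adjusted p of 0.190 in edgeR. It was the only one of the tested 7 with a negative value.

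Within the Aldh1 family, Aldh1b1 held 54.2, 66.8 and 53.1% of the TPM of the 4 genes in control and 34.7, 37.9 and 23.4% in knockout islets. Aldh1a1 held 25.3, 18.1 and 33.6% against 49.1, 27.9 and 38.6%, and Aldh1a3 held 17.1, 14.7 and 12.2% against 15.8, 30.4 and 33.3%. Only the Aldh1b1 shares did not overlap between the groups. In exact two-sided permutation tests of 3 against 3, where 0.1 is the smallest p possible, Aldh1b1 gave p = 0.1, Aldh1a1 and Aldh1a3 gave p = 0.2 and Aldh1a2 gave p = 0.5. Adjusted over these 4 shares, the first 3 were at 0.267, so none reached 0.05. The sum of the 4 genes was 3.48 ± 0.28 TPM in control and 5.84 ± 2.72 TPM in knockout islets (exact permutation p = 0.4, two-sided), and knockout replicate 2, at 3.12 TPM, was below every control library.

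Knockout replicate 3, which was highest for Aldh1a1, Aldh1a2, Aldh1a3 and Dhrs3, was also highest for markers of several non-endocrine cells. Its summed acinar marker level (11 genes) was 10540 CPM, against 3632 and 1928 CPM in the other knockout libraries and 690 to 2699 CPM in control. Of the 10 acinar markers tested 9 had a positive log2 fold change and 0 were called higher, while the acinar transcription factor Bhlha15 was called lower (20.9, 24.5 and 40.8 CPM in control, against 6.14, 10.2 and 15.0 CPM). The mesenchymal sum (12 genes) was 1236 CPM there, 1033 and 670 CPM in the other knockout libraries and 398 to 709 CPM in control, and all 12 markers had a positive log2 fold change. The endothelial sum (10 genes) was 1105, 904 and 1132 CPM in knockout and 635 to 783 CPM in control, again with all 10 fold changes positive, 5 of them called. Schwann cell markers (7 genes) summed to 44.7 CPM in knockout replicate 3 and 17.9 to 34.6 CPM elsewhere, whereas immune markers (10 genes) stood at 150 to 197 CPM in knockout and 149 to 297 CPM in control. None of these lists had all its defining markers at 0 in any group, and the part of other cell types in the values of Aldh1a1, Aldh1a2, Aldh1a3 and Dhrs3 was not tested.

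**Figure D3:**
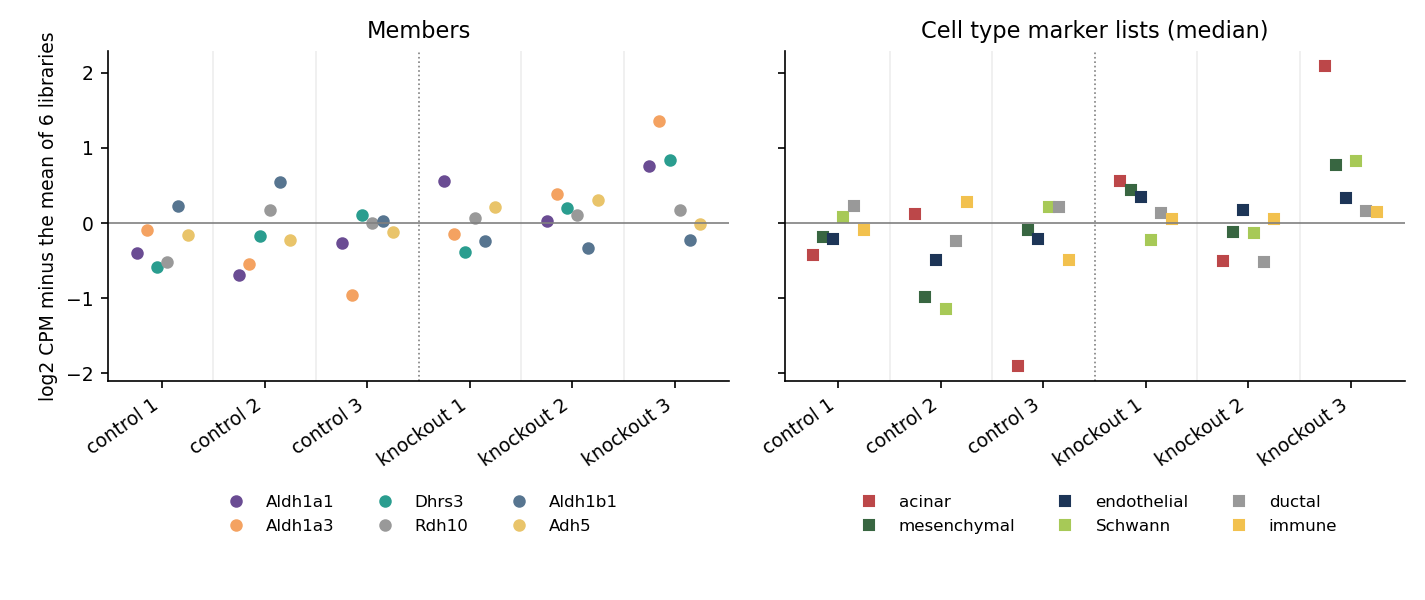
Log2 CPM of 6 members minus their mean over the 6 libraries (left), and the same as the median over each list of cell type markers (right), 1 column for each library. Among the members, knockout replicate 3 is at 1.36 for Aldh1a3, 0.84 for Dhrs3 and 0.76 for Aldh1a1. It is at 0.17 for Rdh10, -0.01 for Adh5 and -0.23 for Aldh1b1. Among the marker lists, it is at 2.09 for acinar, 0.77 for mesenchymal and 0.83 for Schwann cell markers. It is at 0.34 for endothelial, 0.16 for ductal and 0.14 for immune markers.

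Markers of endocrine cells had lower sums in the knockout, as Adh1 did. Nearly all of the beta cell sum given above was Ins1, Ins2 and Iapp. All of its 10 markers but Mafa had a negative log2 fold change, and 3 were called lower. Mafa had 319.5, 275.6 and 310.9 CPM in control and 341.2, 535.8 and 487.5 CPM in knockout islets. Alpha cell markers (9 genes) summed to 37190 to 66370 CPM in control and 24660 to 29650 CPM in knockout islets, nearly all of it Gcg, and 7 of the 9 had a negative log2 fold change. Ttr and Gc were the exceptions, and Gc was called higher, from 104 to 125 CPM in control to 405 to 468 CPM in the knockout. Delta cell markers (4 genes) summed to 3117 to 3445 CPM in control and 1458 to 1873 CPM in the knockout, and the gamma cell hormones Ppy and Pyy to 4148 to 7128 and 1061 to 1897 CPM. The mesothelial list summed to 104 to 123 CPM in control and 24.97 to 43.2 CPM in knockout islets, nearly all of it Msln. Its markers Wt1, Upk3b and Bnc1 had 1 read each over the 6 libraries and Lrrn4 had 0. Ductal markers (12 genes) stood at 582 to 816 CPM in control and 501 to 513 CPM in knockout islets, but the list had no common direction: 5 of its 10 tested genes were higher, 2 called higher and 3 called lower, with a median log2 fold change of 0.07. The part of all these cells in the Adh1 values was not tested.

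The tested neighbours of Adh1 on chromosome 3 are described by their own log2 fold changes. Because Adh1 was picked for its large fall, its distance from theirs follows in part from that choice. Of 42 annotated genes that lie in or reach into the Adh cluster and the 500 kb to each side of it, 16 were tested, and 13 of these were not members. The log2 fold changes of these 13 ran from -0.98 to 0.63. Of them 1 was called, beside 9.95% of all genes, the tetraspanin gene Tspan5. It had 163, 145 and 126 CPM in control and 82.0, 58.4 and 78.8 CPM in knockout islets. Its log2 fold change was -0.98 (SE 0.18, adjusted p = 0.0135 in edgeR), and with scaling to total counts -0.83 (0.0524). Of the 6 tested genes nearest to Adh1 that are not members, Trmt10a was at 0.42 (adjusted p = 0.205), Metap1 at -0.13 (0.534) and Eif4e at 0.14 (0.604), Gm5105 at 0.63 (0.389) and 1110002E22Rik at -0.63 (0.351), with Mttp, which loads lipid onto lipoproteins, at -0.66 (0.0697). Mttp passed the threshold with the replicate block (0.0468) and in DESeq2 (0.0225), and Metap1 was at 0.013 with scaling to total counts.

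**Figure D4:**
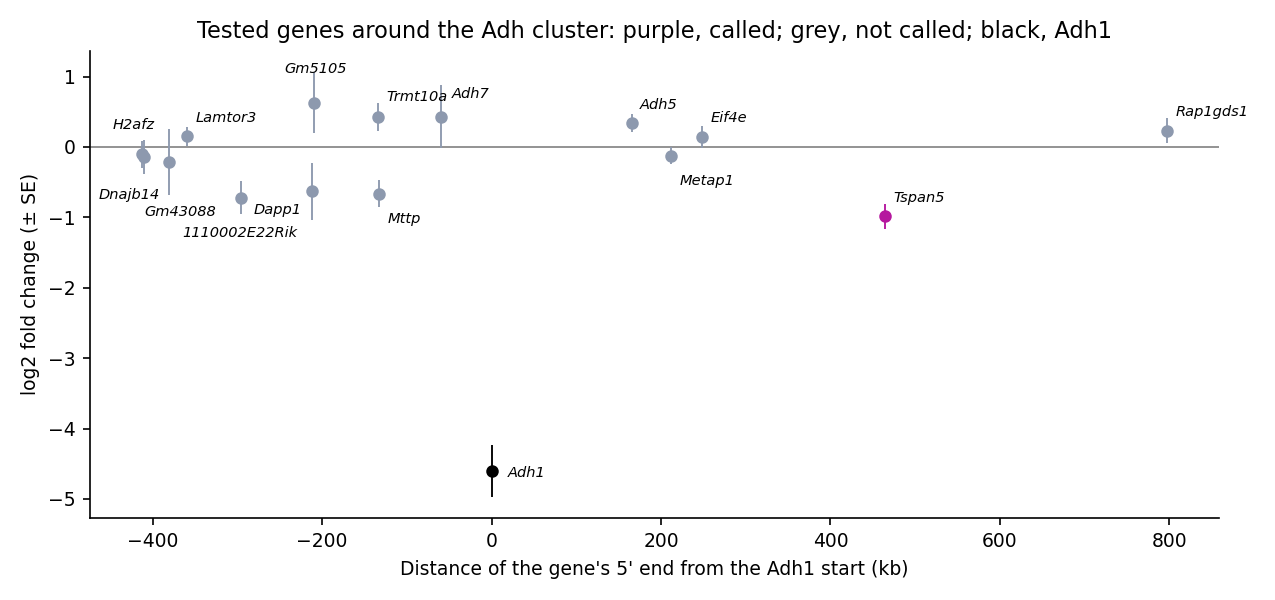
Log2 fold change, knockout against control, with its SE, of the 16 tested genes around the Adh cluster, against the distance of each gene's 5′ end from the Adh1 start in kb. Adh1 is at -4.60, and the 13 genes that are not members lie between -0.98 and 0.63.

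Among 11030 named genes of at least 5 CPM on average, those whose log2 CPM followed Adh1 most closely over the 6 libraries were Eml2, Ifi30, Wnt4, Zmynd8 and Fam83g, with a Pearson r of 0.998 for each. Every one of them was lower in all knockout libraries, so the likeness mostly restates the group difference. The Wnt ligand gene Wnt4 had 217, 219 and 163 CPM in control and 18.4, 25.6 and 34.1 CPM in knockout islets. Fam83g had 25.1, 26.5 and 15.9 CPM in control and 1.65, 2.40 and 2.86 CPM in knockout islets. Like Adh1, Eml2, Ifi30, Wnt4, Zmynd8 and Fam83g all had control replicate 3 as the lowest control and knockout replicate 1 as the lowest knockout library. They were picked for following Adh1 over these libraries, so this shared order comes with the choice. When only the deviations from the group means were compared, the closest were Abca7, Sirt2, Utp15, Naa60 and Prdm10, with an r of 0.968 to 0.994. Over 6 libraries that share their depth and scaling with Adh1, such values describe these libraries only.

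The wider vitamin A and aldehyde pathways were described through lists of 90 further genes, of which 59 were tested. edgeR called 3 higher and 6 lower in the knockout, 15.25% of those tested beside 9.95% of all genes, and the median log2 fold change was -0.04. Other enzymes that oxidise or reduce retinol and retinaldehyde, 10 tested of 22, had 0 called, 4 with an unadjusted p under 0.05 (Aldh1a7, Rdh12, Rdh11 and Akr1b3) beside 27.5% of all genes, and a median of 0.02.

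Called genes of the vitamin A pathway were in its uptake, binding, storage and cleavage list. Of its 12 tested genes 1 was called higher and 3 lower, beside 4.1 and 5.84% of all genes, with a median of -0.03. Rbp4, the carrier that brings retinol through the blood, had 247, 201 and 247 CPM in control and 66.9, 86.0 and 72.1 CPM in knockout islets. It fell by 1.63 on the log2 scale (SE 0.16, adjusted p = 0.0018 in edgeR), and it also stands on the delta cell marker list described above. Bco1, which cleaves beta-carotene into retinaldehyde, had 9.72, 9.69 and 7.23 CPM in control and 2.13, 0.945 and 2.29 CPM in knockout islets, and fell by 2.28 (SE 0.35, adjusted p = 0.0075). Bco2, the mitochondrial carotenoid-cleaving enzyme, had 2.67, 3.27 and 1.93 CPM against 0.803, 0.630 and 0.903 CPM and fell by 1.73 (SE 0.34, adjusted p = 0.0178). Its call was lost in 5 of the 6 fits that left out 1 library (adjusted p 0.0503 to 0.0639), all but the one without control replicate 3. Fabp5, a fatty acid carrier that can also bind retinoic acid, rose by 1.09 (SE 0.27, adjusted p = 0.0422), from 5.80, 4.05 and 7.10 CPM to 9.39, 14.1 and 12.6 CPM. Its call was lost in 5 of 6 such fits (adjusted p 0.0610 to 0.124), all but the one without knockout replicate 1.

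Downstream of retinoic acid, edgeR called 0 genes, beside 9.95% of all genes tested. Lists this short would hold few calls at that share, so the 0 sets them apart from other genes in no clear way. Of the enzymes that break it down, Cyp26a1 had 7 reads over all libraries, and Cyp26b1 had 3.71, 1.03 and 12.4 CPM in control and 0.401, 1.13 and 2.78 CPM in knockout islets (log2 fold change -1.97, SE 0.92, adjusted p = 0.208). The Cyp26b1 groups overlapped and control replicate 3 was far above the rest; without it the log2 fold change was -0.71 (adjusted p = 0.648). Of the receptors and cofactors, 12 of 13 were tested and 0 called, with a median of -0.18. An unadjusted p under 0.05 was reached by 2 of them, beside 27.5% of all genes. The receptors Rara, Rarb and Rarg were at -0.18, 0.26 and 0.02, of which Rarb (-0.12 without control replicate 2) and Rarg (-0.13 to -0.001 in 6 alternatives) changed sign in some alternatives. Their partner Rxra was at -0.65 (adjusted p = 0.0513 in edgeR), with 58.1, 53.7 and 47.6 CPM in control and 35.6, 26.7 and 39.3 CPM in knockout islets. Rxra passed the threshold with the replicate block (0.0425), without a filter (0.0361), in DESeq2 (0.0128) and in the authors' deposited table (-0.55, adjusted p = 0.018). Of 15 genes commonly induced by retinoic acid, 9 were tested, the member Dhrs3 among them, and 0 were called (median 0.50). An unadjusted p under 0.05 was reached by 1 of the 9, beside 27.5% of all genes.

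Among 14 other aldehyde dehydrogenases, 12 were tested and edgeR called 2 lower, beside 5.84% of all genes. An unadjusted p under 0.05 was reached by 5 of the 12, beside 27.5% of all genes, and the median was -0.34. Aldh1l2, of mitochondrial folate metabolism, had 9.06, 17.7 and 11.3 CPM in control and 4.46, 2.27 and 5.08 CPM in knockout islets and fell by 1.68 (SE 0.37, adjusted p = 0.027 in edgeR). Aldh18a1, which starts proline synthesis, had 76.4, 103 and 93.8 CPM against 47.9, 57.5 and 61.2 CPM and fell by 0.72 (SE 0.16, adjusted p = 0.0308). Both calls were lost in 5 of the 6 fits without 1 library, all but the one without control replicate 1, with adjusted p of 0.0554 to 0.0839 for Aldh1l2 and 0.0616 to 0.111 for Aldh18a1. Both were also lost with an offset for transcript length (0.0593 and 0.0574), and that of Aldh18a1 with scaling to total counts (0.0750). Aldh2, the mitochondrial enzyme that clears acetaldehyde after ethanol, had 49.2, 58.5 and 43.7 CPM in control and 37.7, 29.9 and 42.8 CPM in knockout islets, at -0.46 with an adjusted p of 0.141. Aldh3b1 was at -0.92 (adjusted p = 0.0577 in edgeR) and Aldh9a1 at -0.40 (0.0857). For both, all knockout libraries lay below all control libraries, as for 17.2% of all genes tested. The authors' deposited table called both lower, with an adjusted p of 0.0297 and 0.0365. Aldh4a1, Aldh6a1, Aldh7a1 and Aldh16a1 had values above 0.

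Of 9 other genes of alcohol, acetate and formaldehyde metabolism, 7 were tested. Of these, edgeR called 2 higher and 1 lower, beside 4.1 and 5.84% of all genes, with a median of 0.23. Acss2, which turns acetate into acetyl-CoA, had 27.0, 42.0 and 26.2 CPM in control and 77.2, 83.2 and 74.1 CPM in knockout islets and rose by 1.30 (SE 0.20, adjusted p = 0.0074 in edgeR). Sord, which oxidises sorbitol to fructose, fell by 1.30 (SE 0.25, adjusted p = 0.0168), from 29.0, 32.5 and 19.5 CPM to 12.4, 8.13 and 12.2 CPM, and lost its call without control replicate 2 (adjusted p = 0.0590) or knockout replicate 3 (0.0530). Esd, the esterase that acts after Adh5 in formaldehyde clearance, had 80.5, 84.7 and 87.4 CPM in control and 127, 142 and 110 CPM in knockout islets and rose by 0.58 (SE 0.14, adjusted p = 0.0387). Its call was lost in all 6 fits without 1 library (adjusted p 0.0578 to 0.129) and without the filter on low counts (0.0595).

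**Figure D5:**
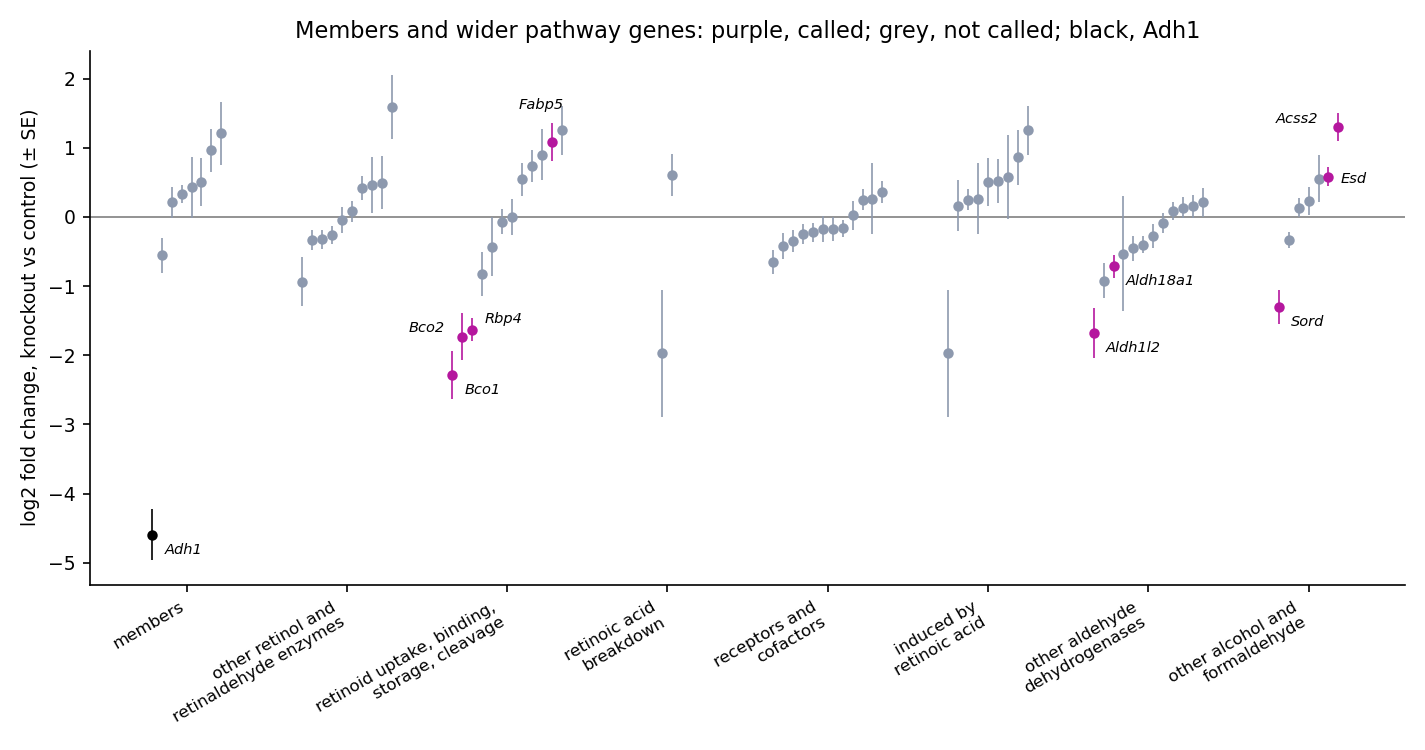
Log2 fold change, knockout against control, with its SE, of the tested members and of the tested genes on each wider list, with called genes named and coloured. Adh1 is at -4.60, the other members lie between -0.56 and 1.21, and the called genes of the wider lists run from Bco1 at -2.28 to Acss2 at 1.30.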

How the data were processed

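Islet RNA of 3 control and 3 Dpy30 knockout mice was sequenced after poly(A) selection. Per the submitters' processing notes, Trimmomatic, Salmon and DESeq2 were used with GRCm38 and mm10, with no versions given. For each library the authors deposited estimated counts and TPM per transcript, per the file headers. The authors also deposited a table of log2 fold changes and p-values of their own comparison, per the file headers. A deposited table of signal per gene was not used here.

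Transcripts were joined to GENCODE vM21 genes on GRCm38 (139852 of 140948 matched, holding 99.6 to 99.7% of reads). Per gene, the estimated counts of its transcripts were added up and rounded, then filtered by filterByExpr (minimum count 10), scaled by TMM and tested over all 16430 genes by edgeR 4.0.16 (quasi-likelihood test, two-sided, R 4.3.3) with Benjamini-Hochberg adjustment at 0.05. The common biological coefficient of variation was 0.26. Log2 CPM used a prior count of 2. Shares of TPM were tested by exact permutation. Depth was 17131515 to 25354384 estimated reads, and 3 reads corresponded to 0.113 to 0.189 CPM. The test was checked on simulated data.

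The members and lists were chosen with earlier results of these data known, and the window around the Adh cluster was set with the files at hand. Named were all members, the called genes of each list (at most 6, by smallest p), every Adh cluster gene, and the 5 genes closest to Adh1 by each measure, plus further list genes chosen after their values were seen. Some list genes are not reported here by name. Replicate numbers are shared between groups, but what a number stands for is not labelled. Deviations from group means correlated at 0.427, 0.135 and 0.196 for same-numbered libraries and at -0.318 to 0.14 for others. The rule set for pairing by number was met, but only weakly. Control replicate 3 with knockout replicate 2, at 0.14, lay above the same-numbered pair of replicates 2, at 0.135. The tests reported are those without pairing, and the replicate block was run as an alternative. P-values set the difference between the groups against the spread between the libraries within them. Alternatives were other scalings, no filter, DESeq2 1.42.0, limma-voom (limma 3.58.1), a length offset, a replicate block and leaving out each library.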

Additional observations from a re-analysis of the deposited data

How the results depend on the processing

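In each of 13 alternatives 0 of the tested members other than Adh1 were called, and the log2 fold change of Adh1 ran from -4.84 to -4.29. The ranges were 0.27 to 0.46 for Adh5, 0.13 to 0.83 for Adh7, 0.80 to 1.14 for Aldh1a1, 0.66 to 1.5 for Aldh1a3, -0.67 to -0.41 for Aldh1b1, 0.03 to 0.36 for Rdh10 and 0.13 to 0.76 for Dhrs3, with the lowest adjusted p, 0.0541, for Aldh1a1 with the replicate block. Over all genes, 1634 were called, 2633 by DESeq2, 2430 with the replicate block and 737 to 1330 with 1 library left out. Of the wider pathway genes 9 were called, 15 by DESeq2, 11 with the replicate block and 3 to 6 with 1 library left out. The cause of these shifts in counts was not tested. Among 32 named genes, the replicate block changed the calls of Rxra and Mttp, given above, and no other. Of 416 values (32 genes, 13 alternatives) 370 kept direction and side of the threshold, 33 lost a call, 5 gained one and 8 changed sign. The sign changes were Metap1 with scaling to total counts (0.013), Rarb without control replicate 2 (-0.12) and Rarg without a filter (-0.001), with the replicate block (-0.003), in limma-voom (-0.011) and in 3 of the 6 fits without 1 library (range of the 6, -0.134 to 0.203), all far from the threshold. Counts under about 50 reads limit Adh7, Aldh1a2, Aldh1a1 and Aldh1a3 in most libraries.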
